A study of Saccharomyces cerevisiae with 51 samples.

Results

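The regions described here are the stretches of the yeast genome whose RNA signal was higher in 1 M sorbitol than in fresh medium in both wild type and *sub1*Δ. A region was counted as a member when its log2(signal + 1) was at least 1.5 higher in the sorbitol library than in the fresh medium library in each strain, and when its signal reached 100 in both sorbitol libraries. Of 55246 bins of 100 bp that reached 100 in both sorbitol libraries, among 120795 bins with RNA reads, 380 met the rule. Adjacent members merged into 61 runs on 12 chromosomes. The members were chosen by their signal in the 4 sorbitol and fresh medium libraries, so values in these libraries are a description and carry no test. The untreated and α-factor RNA libraries and the 5 ChIP libraries played no part in the choice.

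The RNA came from 2 *MATa* haploid strains. Wild type is yAS418, which carries the markers lys2delta0, ura3delta0, his3delta1, and met15 together with the reporter bar1::pFUS1-GFP-LEU2, and yAS395 carries in addition sub1delta::kanMX, the loss of the transcriptional coactivator Sub1. Both therefore lack *BAR1* and carry a green fluorescent protein driven by the *FUS1* promoter. Each strain gave 4 polyA RNA libraries, which were untreated cells, cells with 10 nM α-factor for 45 min, cells moved to fresh SC medium with 1 M sorbitol, and cells moved to fresh SC medium alone. The last pair lasted 45 min in the wild type labels and in the methods, while the labels of *sub1*Δ give no time. ChIP was made with anti-HA in yAS420, which has SUB1-3HAtag::kanMX, the reporter bar1::pFUS1-GFP-LEU2, and the markers leu2delta0, lys2delta0, ura3delta0, his3delta1, and met15. Its cells were untreated, given 10 nM α-factor over 30 min, or shifted for 5 min to fresh medium with or without sorbitol. By the methods, the tagged allele keeps part of the function of *SUB1*. An untreated strain without the tag, yAS38, with bar1::pFus1-GFP-LEU2 and the markers leu2delta0, met15delta0, ura3delta0, and his3delta1, was the ChIP background. Each strain is 1 clone and each condition 1 library a strain, so no difference within a strain or a condition has a replicate check, and the 95% intervals (exact binomial, on recovered reads) cover counting error only, as PCR reads are not independent molecules.

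High external osmolarity draws water out of yeast cells and activates the high osmolarity glycerol pathway, in which the kinase Hog1 enters the nucleus and acts with factors such as Hot1, Sko1, Msn2, and Msn4 at stress genes. Cells answer by making and retaining glycerol, and by a general stress program that includes catalase, hydrophilins, and small heat shock proteins. Sub1 is a single-stranded DNA binding protein found at the promoters of many genes transcribed by RNA polymerase II, and its yeast and human forms are related.

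The RNA libraries held 28754973 to 39497371 reads and the ChIP libraries 24964958 to 48775730. *SUB1* had 3782 to 4801 reads in wild type RNA and 14 to 28 in *sub1*Δ. No RNA reads lay in 9 of the 9 *URA3* bins, 15 of the 15 *MET15* bins, 42 of the 43 *LYS2* bins, or 17 of the 19 *BAR1* bins in any library. *HIS3*, where the label his3delta1 names an allele, had no reads in 2 of its 8 bins and 2132 to 3821 reads in all. The a-cell genes *STE2*, *MFA1*, *MFA2*, *STE6*, and *ASG7* all reached 100 in both sorbitol libraries, whereas *STE3*, the defining receptor of α cells, lay between 14.7 and 23.9 in the 8 libraries. The RNA signal was not separated by strand, and positions below are 100-bp bins of SacCer2.

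In wild type 473 bins passed the threshold of 1.5 (0.856% of those at 100 or more), and in *sub1*Δ 1440 did (2.61%). The 380 that passed in both (0.688%) were 80.3% of the wild type bins and 26.4% of the *sub1*Δ bins. Among members, the median difference was 2.17 in wild type, with a highest value of 3.49, and 2.71 in *sub1*Δ, with a highest value of 5.71. The difference was larger in *sub1*Δ than in wild type in 320 of the 380 bins. Large differences were more frequent in *sub1*Δ over all bins as well, with 5.92% at 1 or above against 1.74% in wild type. No gap separated members from other bins: 27 members lay within 0.1 above the threshold in the strain with the smaller difference, and 42 other bins lay within 0.1 below it. Bins of *RTN2*, *CMK2*, *GPP2*, and *RCR1* were just inside, *RTN2* lowest, and bins of *GRE3*, *RTN2*, *SOR2*, and *BAG7* were just outside, *BAG7* highest.

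**Figure D1:**
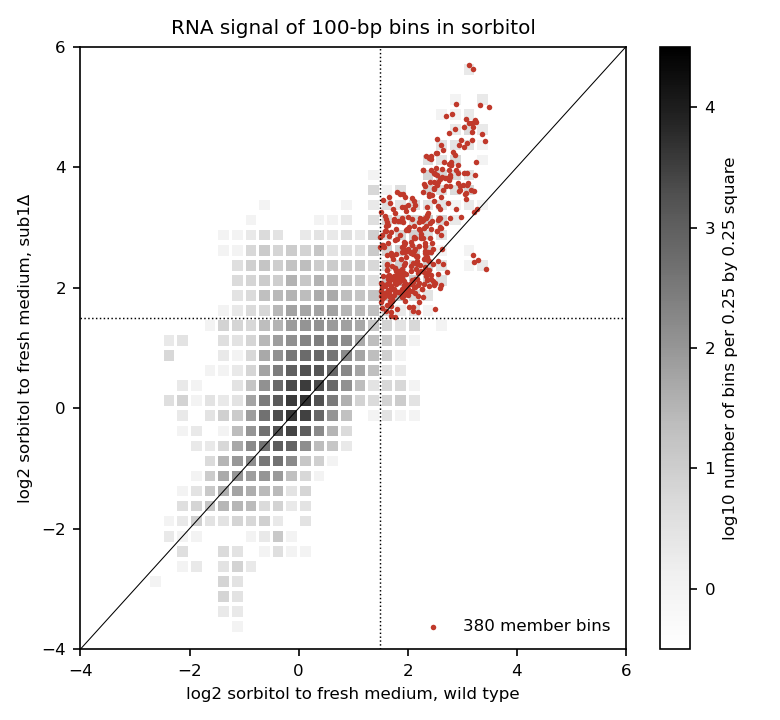
Difference in log2(signal + 1) between sorbitol and fresh medium in wild type (x axis) and in *sub1*Δ (y axis), for the 55246 bins at 100 or more in both sorbitol libraries, where shading is the log10 number of bins in each square of the plot and red points are the 380 members. The points fill the corner past 1.5 on both axes, and 320 of them lie above the diagonal.

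The members were few and concentrated. The median run was 4 bins long, 17 runs were a single bin, and the 12 runs of 10 or more bins held 219 of the 380 bins. The longest run had 48 bins and covered *HBT1* and *FMP45* side by side on chromosome IV, bins 57200 to 61900. In all, 47 annotated genes held at least 1 member bin, 46 of them protein coding and the other the noncoding transcript SUT169, and 29 genes had members in at least 50% of their bins. Averaged over its bins, a gene passed 1.5 in both strains in 34 of the 47 cases, as did 30 of the 3789 genes at 100 or more in both sorbitol libraries (0.792%). Of the member bins, 340 lay in genes and 40 outside. Neighbouring bins share transcripts and are not separate observations.

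Together the members took 1.40% of the wild type RNA signal in sorbitol, 0.273% in fresh medium, 0.418% in untreated cells, and 0.270% with α-factor. In *sub1*Δ the shares were 1.22% in sorbitol, 0.147% in fresh medium, 0.266% untreated, and 0.253% with α-factor. Sorbitol gave the highest share in either strain, and the lowest was with α-factor in wild type and in fresh medium in *sub1*Δ. The run at *HSP12*, which encodes a small heat shock protein that binds membranes, held 31.7% of the members' signal in wild type in sorbitol and 25.2% in *sub1*Δ.

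In both sorbitol libraries *HSP12* stood far above every other gene of the set. Elsewhere *SSA1* was above it with α-factor in wild type, at 2223. In *sub1*Δ *SSA1* was above it in fresh medium, untreated, and with α-factor, at 1815, 2897, and 2360. *HSP12* has 4 bins on chromosome VI, inside the run of bins 107200 to 107700. Its mean signal over these 4 bins was 31961 in sorbitol, 4366 in fresh medium, 5980 in untreated cells, and 1701 with α-factor in wild type. In *sub1*Δ the same values were 21737, 622, 1201, and 525. The sorbitol libraries were therefore the highest in both strains, and *sub1*Δ was below wild type in all 4 conditions. The log2 ratio of sorbitol to fresh medium was 2.87 (2.85 to 2.89) in wild type and 5.13 (5.07 to 5.19) in *sub1*Δ, the larger value resting on a lower level in fresh medium. In such bulk samples, fewer cells with the RNA and less RNA per cell cannot be told apart.

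Genes of glycerol metabolism were present with 3 members. *GPP2*, the osmotically regulated glycerol-3-phosphate phosphatase that carries out the last step of glycerol synthesis, was a member over all 9 of its bins on chromosome V. Its wild type signal was 2046 in sorbitol, 577 in fresh medium, 638 untreated, and 427 with α-factor, and in *sub1*Δ it was 3153, 537, 609, and 490. The controls of the 2 strains were close to each other and the sorbitol level was higher in *sub1*Δ, at a log2 ratio of 0.62 (0.60 to 0.65). *DAK1*, a dihydroxyacetone kinase, was a member over all of its 18 bins, with 1127, 257, 339, and 269 in wild type in the same order and 1244, 228, 330, and 290 in *sub1*Δ. *STL1*, the glycerol proton symporter of the plasma membrane, was among the lowest genes of the set and a member in 8 of 18 bins. It stood at 116 in sorbitol against 35.6 to 40.5 in the other wild type libraries, and at 152 against 41.1 to 45.6 in *sub1*Δ. Of the glycerol list, 12 genes were named and 11 were at 100 or more, and 3 passed 1.5 in both strains, against 0.792% of all genes. The medians of the list were 0.34 in wild type and 1.00 in *sub1*Δ, against −0.03 and 0.07 for all genes tested.

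The next members are ordered by the known roles of their products, put together after their values were seen, with no count of the other genes of each role. Among them were 3 genes of minor isoenzymes of the pentose phosphate pathway. *TKL2*, the minor transketolase, was a member over its whole length of 21 bins, at 457 in sorbitol, 65.3 in fresh medium, 103 untreated, and 46.4 with α-factor in wild type, and at 628, 35.9, 61.7, and 44.3 in *sub1*Δ. *NQM1*, the minor transaldolase, was a member in 11 of 11 bins, at 1317, 142, 254, and 187 in wild type and 1956, 73.7, 149, and 152 in *sub1*Δ. Both genes were higher in *sub1*Δ than in wild type in sorbitol and lower in fresh medium and untreated cells. Their log2 ratios of sorbitol to fresh medium were 2.81 (2.73 to 2.89) and 4.13 (4.02 to 4.24) for *TKL2* and 3.22 (3.14 to 3.29) and 4.73 (4.63 to 4.84) for *NQM1*, wild type first. *GND2*, the minor 6-phosphogluconate dehydrogenase, followed at 164, 36.2, 59.2, and 35.0 in wild type and 147, 25.3, 40.3, and 44.2 in *sub1*Δ. *TKL2*, *GND2*, *GPP2*, *SSA1*, *ALD2*, and *ALD3* each have a close relative in the genome, and their levels are uncertain to the extent that reads were split between copies.

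Some members encode reductases or aldehyde dehydrogenases. *GRE2*, a methylglyoxal reductase, had 709 in sorbitol, 150 in fresh medium, 122 untreated, and 61.0 with α-factor in wild type, and 893, 116, 68.6, and 46.1 in *sub1*Δ. Unlike most of the set, its level was lower in untreated cells than in fresh medium in both strains. *GRE3*, an aldose reductase, was a member in 6 of 11 bins, at 1240, 426, 548, and 502 in wild type and 1535, 371, 544, and 476 in *sub1*Δ. The cytosolic aldehyde dehydrogenases *ALD2* and *ALD3* lie side by side on chromosome XIII. *ALD3* had 949, 172, 327, and 110 in wild type and 972, 81.0, 176, and 105 in *sub1*Δ. The strains differed by 0.04 (0.00 to 0.07) on the log2 scale in sorbitol and by −1.08 in fresh medium. Another aldehyde dehydrogenase gene, *ALD4* of the stress list, was no member and stood at −0.68 in wild type. *ALD2* had 340 in sorbitol against 83.3 to 153 in the other wild type libraries, and 370 against 66.4 to 113 in *sub1*Δ. *YML131W*, whose product resembles medium-chain dehydrogenases, was the gene with the largest excess in *sub1*Δ, at 686 in sorbitol against 283 in wild type, while the other conditions ranged from 77.7 to 90.9 in wild type and from 94.2 to 117 in *sub1*Δ.

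**Figure D2:**
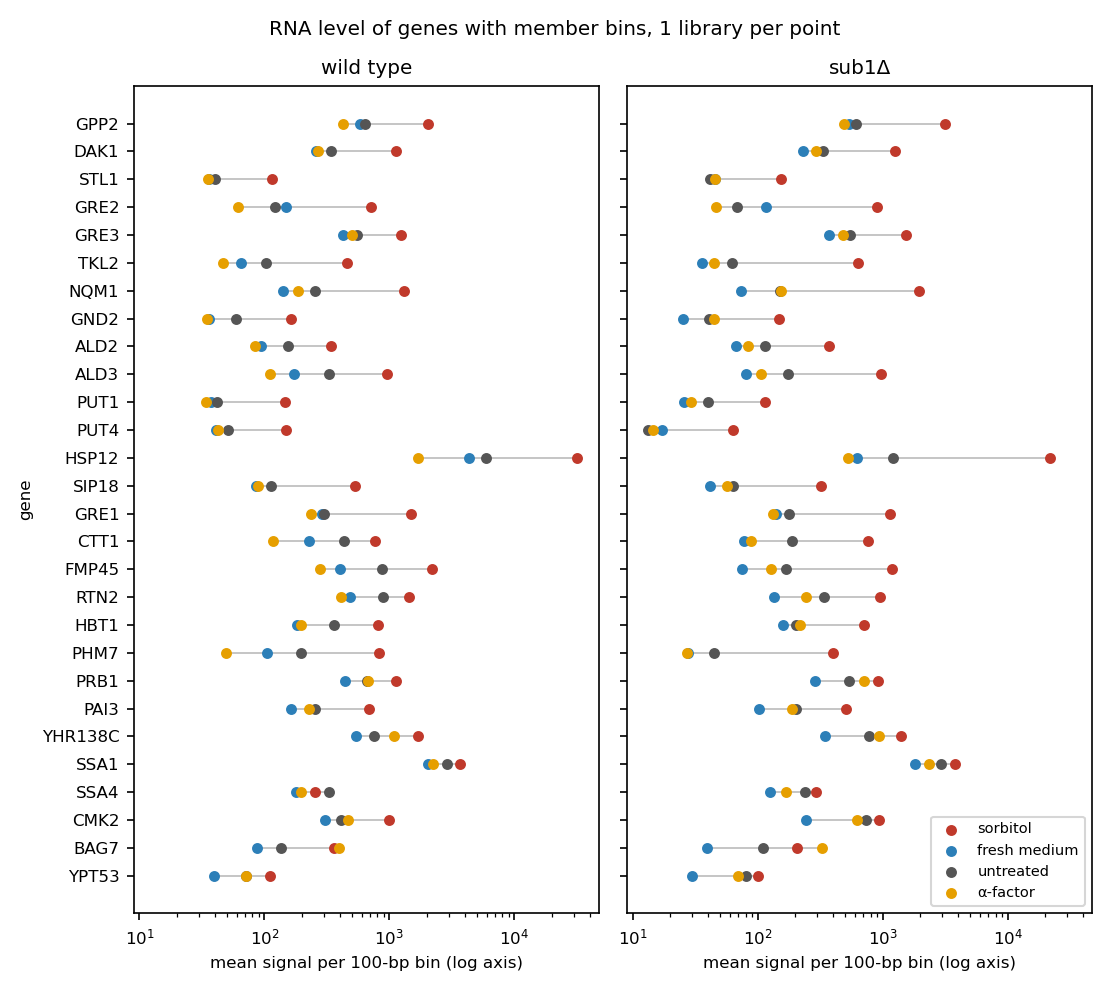
Mean RNA signal per 100-bp bin (x axis, log scale) of genes that hold member bins and have a described role (rows), in wild type (left) and *sub1*Δ (right), with 1 point for each library and the condition given by the colour. The sorbitol point lies to the right of the fresh medium point in each row of both panels, with *HSP12* at 31961 and 21737 farthest to the right, and *BAG7* and *SSA4* show another condition above sorbitol in wild type.

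Among genes of the general stress program, *CTT1*, cytosolic catalase, had 766 in sorbitol, 228 in fresh medium, 434 untreated, and 118 with α-factor in wild type, and 765, 78.1, 187, and 89.0 in *sub1*Δ. The log2 ratio of the strains in sorbitol lay within counting error of 0 (−0.04 to 0.03), whereas in untreated cells it was −1.22 (−1.28 to −1.16). The hydrophilins *GRE1* and *SIP18*, which protect proteins during desiccation, stood at 1477 and 526 in sorbitol in wild type and at 1140 and 320 in *sub1*Δ. In the other libraries *GRE1* lay between 235 and 302 in wild type and between 133 and 179 in *sub1*Δ, and *SIP18* between 85.2 and 112 and between 41.1 and 63.5. Reads of *SIP18* and the overlapping YMR175W-A, of *SPS100* and SUT169, and of *PAI3* and the end of *DDR48* next to it cannot be told apart without strand where they share bins. The osmotic and general stress list had 34 genes, all at 100 or more, of which 10 passed 1.5 in both strains, against 0.792% of all genes, and 14 held a member bin. Its median ratios were 0.77 in wild type and 1.41 in *sub1*Δ, against −0.03 and 0.07 for all genes tested. Some of these 14 entered by 1 or 2 bins only, among them the Hsp70 genes *SSA1* (1 of 20 bins) and *SSA4* (1 of 20), *MSC1* (1 of 17), and *DDR48* (1 of 14), and the gene-level ratios of *SSA1* were 0.84 in wild type and 1.07 in *sub1*Δ.

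Members with products at membranes included the longest runs. *HBT1*, known for a role in cell shape during mating, was a member over 32 bins, at 816, 183, 360, and 198 in wild type and 706, 158, 200, and 216 in *sub1*Δ. Its log2 ratios of sorbitol to fresh medium were nearly equal, 2.15 (2.11 to 2.19) and 2.16 (2.12 to 2.21). Its neighbour *FMP45*, a Sur7 family protein of the cell cortex, had 2196, 402, 866, and 279 in wild type and 1189, 74.9, 168, and 127 in *sub1*Δ, and the ratios were 2.45 (2.40 to 2.50) and 3.99 (3.88 to 4.10). The adjoining genes thus differed in how far the strains were apart. *PHM7*, a predicted membrane protein, was a member over 30 of 30 bins, at 820, 105, 198, and 49.3 in wild type and 396, 27.5, 44.4, and 27.1 in *sub1*Δ. *RTN2*, a reticulon of the endoplasmic reticulum, was a member in 8 of 13 bins, at 1434, 481, 881, and 407 and at 950, 136, 341, and 243. For each of *FMP45*, *PHM7*, and *RTN2* every *sub1*Δ library was below the wild type library of the same condition.

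Other members were *PUT1*, the mitochondrial proline oxidase, and *PUT4*, the proline permease. *PUT1* had 146 in sorbitol in wild type and 114 in *sub1*Δ, against 34.2 to 41.7 and 25.8 to 39.8 in the other libraries. *PUT4* had 150 and 62.9, against 40.9 to 51.2 and 13.3 to 17.0. The strain difference of *PUT4* was −1.25 (−1.35 to −1.15) in sorbitol and −1.94 (−2.14 to −1.75) in untreated cells. *SPG4*, needed for survival in stationary phase, had 480, 116, 247, and 150 in wild type and 209, 25.5, 63.9, and 63.1 in *sub1*Δ. *PUT4* and *SPG4* were the genes at least 1 lower on the log2 scale in *sub1*Δ in all 4 conditions.

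A further set had more signal with α-factor than in untreated cells in wild type. *MNC1*, a small membrane protein gene, had 1894 in sorbitol, 191 in fresh medium, 243 untreated, and 970 with α-factor in wild type, and 1135, 209, 696, and 1417 in *sub1*Δ. In wild type sorbitol gave the highest level, and in *sub1*Δ α-factor did. *BAG7*, a GTPase activating protein for Rho1, had 362, 86.6, 136, and 398 in wild type and 206, 39.5, 110, and 324 in *sub1*Δ, so α-factor exceeded sorbitol in both strains. *CMK2*, a calmodulin-dependent protein kinase, was a member over all 14 bins, at 1000, 306, 413, and 467 in wild type and 929, 241, 732, and 620 in *sub1*Δ. *CPP3*, whose role is not given here, had 968, 162, 269, and 362 and 527, 67.9, 261, and 401, and *YOR385W* had 628, 119, 151, and 271 and 675, 133, 304, and 415. For these 5 genes fresh medium, and not α-factor, gave the lowest level in both strains. The same held for some genes above, among them *DAK1*, *NQM1*, *GRE3*, *HBT1*, and *SPG4*.

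Among the remaining named genes, *YMR090W* had 910 and 915 in sorbitol in the 2 strains against 208 to 318 and 133 to 225 elsewhere. *YHR138C*, related to an inhibitor of vacuolar proteinase B, had 1697 and 1398 against 541 to 1086 and 343 to 928. *HXT5*, a hexose transporter of moderate affinity, held 2 member bins of 18 and was the single gene of the hexose list to hold any. Its gene-level ratios of 1.03 (0.98 to 1.09) and 2.08 (2.01 to 2.15) put it past the threshold in *sub1*Δ alone.

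The other genes held fewer member bins. *PAI3*, an inhibitor of proteinase A, was a member over its 3 bins, at 684 in sorbitol against 162 to 252 in wild type and at 511 against 102 to 204 in *sub1*Δ, and *PRB1*, vacuolar proteinase B, held 1 member bin of 21, at 1137 against 444 to 675 and at 911 against 288 to 706. *YNL195C* stood at 736 in sorbitol and 640 untreated in wild type and at 415 and 151 in *sub1*Δ, so the untreated level was close to that in sorbitol in wild type alone. *DIA1*, known from invasive growth, and *RCR1*, of the endoplasmic reticulum membrane, had smaller ratios in *sub1*Δ than in wild type, 1.48 (1.39 to 1.56) against 1.90 (1.82 to 1.98) for *DIA1* and 1.43 (1.34 to 1.52) against 1.95 (1.87 to 2.02) for *RCR1*. *SPS100*, a spore wall gene, had 153 in sorbitol in wild type and 74.9 in *sub1*Δ, against 24.6 to 40.4 and 21.3 to 29.7 elsewhere. *YPT53*, a Rab GTPase of endosomes, had 110 and 99.9 in sorbitol against 39.6 to 71.4 and 29.8 to 80.4.

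The remaining lists gave no members. Of the 25 genes of the HOG pathway itself, the sensors, kinases, phosphatases, and transcription factors, 24 were named and 17 were at 100 or more, and none of them passed 1.5 in both strains or held a member bin. At the 0.792% of all genes that passed, a count of 0 among 17 is near the background. For trehalose and glycogen, 13 genes were at 100 or more and none passed, with a median of −0.07 in wild type and 1.94 in *sub1*Δ. Of the 10 pheromone response genes at 100 or more none passed, a count again near the background. The median of that list was below 0, at −0.94 in wild type and −0.85 in *sub1*Δ.

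A single member run of more than 1 bin lay outside annotated genes. It spanned 9 bins on chromosome XV, 160800 to 161600, between *ADH1* and *YOL085C*, and its signal was 368 in sorbitol, 72.7 in fresh medium, 122 untreated, and 89.3 with α-factor in wild type and 228, 31.9, 89.0, and 60.8 in *sub1*Δ. The other runs without a gene were single bins, at 281300 on chromosome VIII, 272600 on chromosome XIV, and 494600 on chromosome XV.

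The untreated libraries gave a control that the rule did not use, although each comparison shares its sorbitol library with the rule. The median log2 ratio of sorbitol to untreated over the 380 bins was 1.58 in wild type and 1.94 in *sub1*Δ. At least 1 was reached by 334 bins in wild type, where 1.14% of all bins did so, and by 328 in *sub1*Δ, where also 1.14% did. At least 1.5 in both strains was reached by 165 bins, 43.4% of the members, against 0.317% of all bins. By gene, 35 of 47 were at least 1 higher than untreated in wild type (1.19% of all genes) and 35 in *sub1*Δ (1.24%). The genes that were not higher than untreated had few member bins, as *SSA4* at −0.36 in wild type and YPR145C-A at −0.19 in *sub1*Δ.

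Members were lower in fresh medium than in untreated cells, in comparisons that share the fresh medium library with the rule. The median was −0.63 in wild type, with 64 bins at −1 or below (0.907% of all bins), and −0.84 in *sub1*Δ, with 154 (4.42%). By gene, *FMP45*, *SPG4*, and *YNL195C* were at −1 or below in wild type (0.501% of all genes), and 16 genes were in *sub1*Δ (3.96%). Since the rule required a low fresh medium level, these shares follow in part from the choice of members.

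The next question was how the members stood between the strains. In sorbitol the median log2 *sub1*Δ to wild type ratio was −0.13 over the 380 bins, against 0.14 over all bins (−0.33 against −0.06 with each library divided by its median), and 236 members were lower in *sub1*Δ. A ratio of 1 or above was seen in 10 bins (2.20% of all bins) and of −1 or below in 42 (0.805%). In fresh medium the median was −0.70, with 144 bins at −1 or below (3.56%). These are libraries of the rule. In untreated cells, outside the rule, the median was −0.64 against 0.03 for all bins (−0.32 over runs in place of bins), 294 of 380 bins were below 0, and 103 were at −1 or below (1.98%) and 15 at 1 or above (2.60%). With α-factor it was −0.12 against 0.09, with 38 bins at −1 or below (0.576%) and 4 at 1 or above (0.603%). The medians were thus farther below 0 in the conditions without sorbitol or α-factor.

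By gene, 9 of the 47 were at −1 or below in *sub1*Δ both in untreated cells and in fresh medium, where 1.40% of all genes were: *FMP45*, *RTN2*, *HSP12*, *CTT1*, *MSC1*, *SPG4*, *YNL195C*, *PHM7*, and *PUT4*. No further gene was at −1 or below in untreated cells alone, and 5 more were in fresh medium alone, where 3.25% of all genes were at −1 or below. *FMP45* had the lowest untreated ratio, −2.36 (−2.44 to −2.29), and *HSP12* followed at −2.32 (−2.36 to −2.27). *MNC1* at 1.52 (1.40 to 1.64), YPR145C-A at 1.42 (1.14 to 1.69), and *YOR385W* at 1.01 (0.93 to 1.10) were at 1 or above (0.924%). In sorbitol 5 genes were at −1 or below (0.528%), *SPS100*, SUT169, *SPG4*, *PHM7*, and *PUT4*, and *YML131W* was alone at 1 or above (0.422%), at 1.28 (1.22 to 1.34). With α-factor *FMP45*, *HSP12*, *SPG4*, *YNL195C*, and *PUT4* were at −1 or below (0.633%). In 35 of the 47 genes the strain difference was smaller in size in sorbitol than in fresh medium. These are libraries of the rule, and the same count was not made over all genes. Over all genes, too, fewer were at −1 or below in sorbitol (0.528%) than in fresh medium (3.25%).

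The strains were also compared by edgeR's quasi-likelihood test over the 4 untreated and α-factor libraries, none of which the rule used, with strain and condition as terms. At an adjusted p of 0.05, 342 of 6062 genes were higher in *sub1*Δ (5.64%) and 311 lower (5.13%). Of the 47 genes with member bins 20 were lower, led by *HSP12* at −2.10 (adjusted p = 1.17e-05), *YNL195C* at −1.98 (2.47e-06), *FMP45* at −1.84 (0.000273), *PUT4* at −1.84 (2.14e-05), and *SPG4* at −1.69 (7.87e-05). The 5 that were higher were *YPR145C-A* at 1.05 (adjusted p = 0.00347), *MNC1* at 0.93 (0.00763), *YOR385W* at 0.72 (0.00337), *CMK2*, and *DIA1*. With DESeq2 on the 4 libraries 13 were lower and 4 higher, against 237 and 206 of 6062 genes. With all 8 libraries 18 were lower and none higher (1 at an unadjusted p under 0.05), against 503 and 586 of 6081 genes. That last fit includes the libraries by which the members were chosen, so it is no separate support. The spread in these fits is what strain and condition leave over, and a difference between clones cannot be told apart from the deletion.

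**Figure D3:**
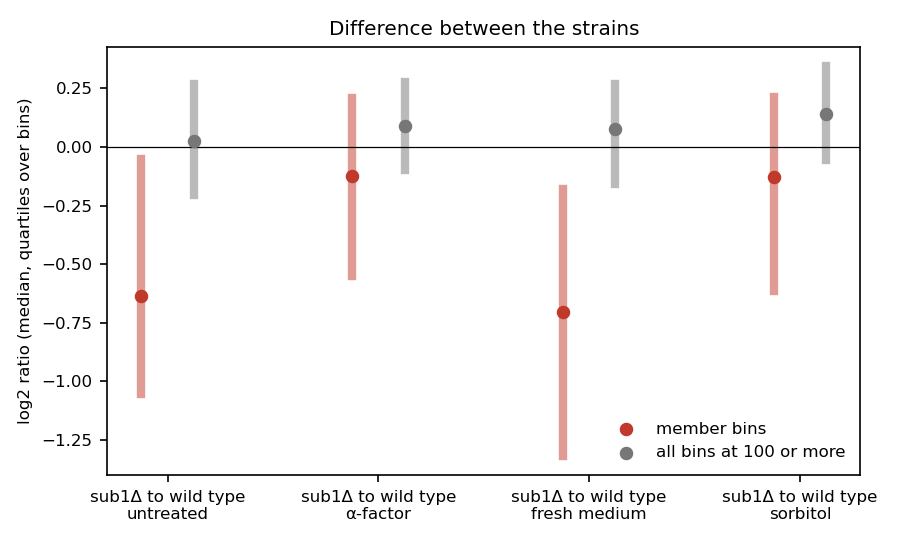
Median log2 *sub1*Δ to wild type ratio RNA signal (y axis, points, with bars from the lower to the upper quartile over bins) in each of the 4 conditions, for the 380 member bins in red and for all 55246 bins at 100 or more in both sorbitol libraries in grey. The member medians are −0.64 untreated and −0.70 in fresh medium and lie nearer to 0 with α-factor (−0.12) and in sorbitol (−0.13), below the medians of all bins in each condition.

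The α-factor comparison used neither library of the rule. In wild type the members' median log2 ratio of α-factor to untreated was −0.69, against −0.17 over all bins, with 127 bins at −1 or below (3.39% of all bins) and 20 at 1 or above (3.11%). In *sub1*Δ it was −0.26 against −0.09, with 34 bins at −1 or below (1.97%) and 17 at 1 or above (1.67%). As shares of the members, these were 33.4% downward and 5.26% upward in wild type and 8.95% and 4.47% in *sub1*Δ, each above the share of all bins. Long runs weigh on these medians: over runs in place of bins the wild type median was −0.42.

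By gene, 35 of 47 were below untreated in wild type. Most of the genome was too: the median of all genes was −0.10, and 36824 of all 55246 bins were below 0. The 10 at −1 or below (2.74% of all genes) were *TKL2*, *FMP45*, *RTN2*, *HSP12*, *CTT1*, *HXT5*, *ALD3*, *YNL195C*, *GRE2*, and *PHM7*, led by *PHM7* at −2.00 (−2.09 to −1.92) and *CTT1* at −1.88 (−1.95 to −1.81). In *sub1*Δ only *HSP12* at −1.19 (−1.27 to −1.12) and *CTT1* at −1.07 (−1.16 to −0.98) did so (1.77%). The untreated levels of all 10 genes, *HSP12* and *CTT1* included, were lower in *sub1*Δ than in wild type, as for *PHM7* at 44.4 against 198. Whether this bears on the size of the falls was not tested. Upward, *MNC1* at 2.00 (1.89 to 2.11) and *BAG7* at 1.55 (1.48 to 1.63) passed 1 in wild type (1.56%), and *MNC1* at 1.03 (0.95 to 1.10), *BAG7* at 1.55 (1.47 to 1.64), and YMR175W-A at 1.31 (0.89 to 1.75) did in *sub1*Δ (1.45%). Whether the response differed between the strains was not tested.

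A count test over genes took the strains as repeats of each treatment (edgeR's quasi-likelihood test on recovered reads, strain and condition as terms, 8 libraries, adjusted over 6081 genes). The test takes its spread in part from the 4 sorbitol and fresh medium libraries. These chose the members, so the p-values of members from the test are not independent of that choice. At an adjusted p of 0.05 it called 518 genes higher with α-factor (8.52%) and 460 lower (7.56%). Of the 47 genes with member bins, 2 were higher, *BAG7* at 1.68 (adjusted p = 0.00218) and YMR175W-A at 1.15 (adjusted p = 0.0202). The 4 that were lower were *CTT1* at −1.35 (adjusted p = 0.0346), *PHM7* at −1.24 (0.0339), *ALD3* at −1.02 (0.0415), and *HXT5* at −0.87 (0.0296). *HSP12* at −1.39 (adjusted p = 0.0790) and *MNC1* at 1.52 (0.0664) did not pass. In this fit the shares among the members were near those of all genes, but the counts depended on the fit. With the untreated and α-factor libraries alone, 8 of the 47 were higher and 15 lower, against 631 and 603 of 6062 genes. With DESeq2 on 8 libraries, 5 were higher and 10 lower, against 623 and 639 of 6081 genes. In both alternatives the share called lower was larger among the members than among all genes. The share called higher was also larger with the untreated and α-factor libraries alone, and near that of all genes with DESeq2.

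ChIP libraries were each divided by their median bin and set against the untagged library in the same way. The 2 ChIP samples of the sorbitol experiment carry treatment fields that read the opposite of their titles and descriptions, so they are called here the libraries labelled sorbitol and labelled fresh medium, and the direction between them rests on the titles. No untagged library from sorbitol-treated cells was analysed here.

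Within the member bins Sub1-3HA was at or near the genome level in 3 of the 4 tagged libraries. A ratio of at least 2 to untagged was reached in 30 of 380 bins (7.89%) in untreated cells, where 7.53% of all bins reached it, in 33 with α-factor (8.28% of all bins), and in 37 in the library labelled fresh medium (8.74%). In the library labelled sorbitol 10 bins did (2.63%, against 0.854% of all bins), and these were 4 bins at *GPP2*, 2 at *HSP12*, 2 at the 5′ end of *FMP45*, 1 at *TKL2*, and 1 at *SSA1*. Over all bins the library labelled fresh medium was thus near the untreated and α-factor libraries in this share, and the one labelled sorbitol was not. By gene, 37 of 47 (78.7%) had a bin of at least 2 within 5 bins in untreated cells, against 81.0% of all genes.

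For each run the bin with the highest ratio in untreated cells was sought within 5 bins. The median over runs was 2.26 untreated (38 of 61 at 2 or above), 2.28 with α-factor (37), 2.40 in the library labelled fresh medium (45), and 1.31 in that labelled sorbitol (8). The library labelled sorbitol was below that labelled fresh medium at 54 of the 61 runs. All genes showed this too: their median was 2.85 in the library labelled fresh medium and 1.27 in that labelled sorbitol. For the 47 genes with member bins the medians were 3.11 and 1.36. The strongest signal stood beside the intergenic run of chromosome XV, at bin 160700 next to *ADH1*, with ratios of 40.0 untreated, 45.1 with α-factor, 53.6 in the library labelled fresh medium, and 2.66 in that labelled sorbitol. *BAG7* followed at 11.6, 15.6, 12.6, and 2.33 in the same order, then *GRE2* at 5.33, 6.11, 6.67, and 1.39, *SPG4* at 5.22, 7.04, 5.76, and 0.983, and *CPP3* at 4.63, 5.53, 7.38, and 1.65. All 5 of these runs were lowest in the library labelled sorbitol.

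**Figure D4:**
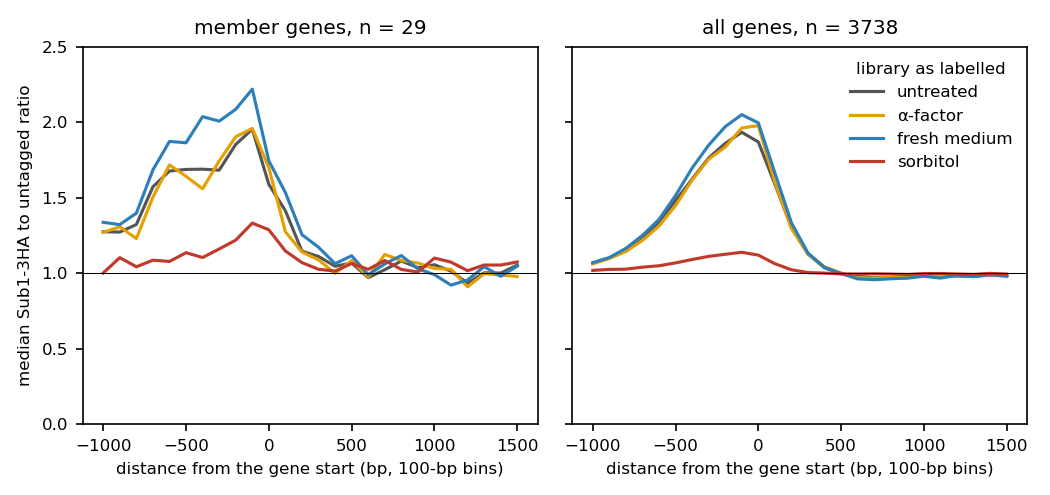
Median Sub1-3HA to untagged ratio (y axis) by distance from the start of the gene (x axis, bp) for the 29 genes with members in at least 50% of their bins (left) and for all 3738 genes compared (right), with 1 line for each tagged library. At 100 bp upstream the 29 genes have 1.96 untreated, 1.96 with α-factor, 2.22 in the library labelled fresh medium, and 1.33 in that labelled sorbitol, against 1.93, 1.96, 2.05, and 1.14 for all genes.

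The 7 runs that were higher in the library labelled sorbitol lay at *GPP2*, *HSP12*, *MNC1*, *RTN2* (2 runs), *STL1*, and *CTT1*. At *MNC1* the ratios were 3.77 in that library and 3.11 in that labelled fresh medium, at the *CTT1* run 2.41 and 2.32, and at the *RTN2* and *STL1* runs all were below 1.3. *GPP2* and *HSP12* had the highest ratios of the 61 runs in the library labelled sorbitol. They were not the highest of the genes with member bins. Around the whole of *SSA1*, beyond the window of its short run, the strongest untreated bin had 43.8 in the library labelled sorbitol. The same bin had 30.3 in that labelled fresh medium, 29.0 untreated, and 41.8 with α-factor. At bin 280800 on chromosome V, 1 bin upstream of *GPP2*, 4347 reads were counted in the library labelled sorbitol, 764 in that labelled fresh medium, 364 untreated, 568 with α-factor, and 162 without the tag. The ratios to untagged were 24.3 (20.7 to 28.6), 4.56 (3.85 to 5.44), 2.58, and 2.79. At bin 107200 on chromosome VI, just upstream of *HSP12*, the reads were 1877, 877, 216, 274, and 186 in the same order, and the ratios 9.13 (7.85 to 10.7), 4.56 (3.89 to 5.37), 1.33, and 1.17. The library labelled sorbitol was thus 5.32 (4.92 to 5.75) times that labelled fresh medium at *GPP2* and 2.00 (1.85 to 2.17) times at *HSP12*, both chosen as the highest bin of that library. The untagged library stood at 0.900 and 1.03 of its own median at these bins. Over the members 3 bins were at least 1 higher on the log2 scale in the library labelled sorbitol than in that labelled fresh medium (0.230% of all bins), 2 at *GPP2* and 1 at *HSP12*, and 20 were at −1 or below (6.24%).

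**Figure D5:**
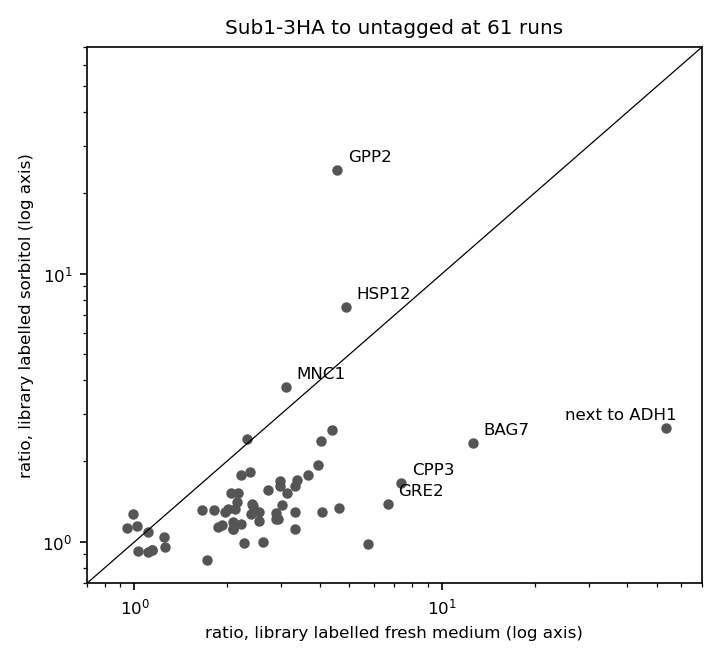
Ratio of Sub1-3HA to untagged signal at the strongest untreated bin within 5 bins of each of the 61 runs, library labelled fresh medium (x axis) against library labelled sorbitol (y axis), both on log scales, with the diagonal marking equal values. At 54 runs the point lies below the diagonal, and of the 7 above it *GPP2* at 24.3 on the y axis, *HSP12* at 7.49, and *MNC1* at 3.77 are highest. Over all genes the median was also lower in the library labelled sorbitol, at 1.27 against 2.85.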

How the data were processed

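RNA and ChIP signal of the *SUB1* strains was used, 8 RNA and 5 ChIP libraries of the 51 samples of the series. Reads had been aligned to sacCer2 with Bowtie2 (per the submitters' processing notes), and the authors deposited the signal of 100-bp bins after scaling libraries to the same total, without strand and with empty bins unlisted, which were taken as 0. Divided by the smallest value of its library, each value came out whole to within 0.001 reads, so the reads behind it were recovered. All values came out whole (100%). Differences within a strain or a condition have no replicates and are described with exact (Clopper-Pearson) 95% intervals. Count tests on reads per gene, chosen after seeing the data, used edgeR 4.0.16 in R 4.3.3 (quasi-likelihood, TMM, filterByExpr, Benjamini-Hochberg) with strain and condition as terms, for α-factor against untreated over 8 libraries (3 residual degrees of freedom) and for *sub1*Δ against wild type over the 4 untreated and α-factor libraries (1 residual degree of freedom). DESeq2 1.42.0 was the alternative. A response that differs between strains counts as spread in them. Barcode count tables of the sorted pools were not used here.

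Bins were compared as log2(signal + 1). A level of a gene is the mean over its bins, and its ratios carry no pseudocount. Genes were given to bins by number from a RefSeq gene table of the R64 assembly, after a check of how that table lines up with the files: in 115 of 120 segments of 100 kb the RNA signal fitted best with no shift, and the other 5, all on chromosome XI, were left unnamed, which left names for 6184 of 6431 genes. No coordinate of R64 is printed, and no sequence or promoter motif was analysed. Each ChIP library was divided by its median bin, and the ratio was taken to the untagged library, with the strongest untreated bin within 5 bins for a run or a gene.

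The members and the gene lists were chosen with earlier results of these data known. Runs named in the text are the 15 longest, the 10 highest in wild type sorbitol, those of 3 or more bins with the 5 highest and 5 lowest ratios of *sub1*Δ to wild type in sorbitol, the 5 strongest in ChIP, the 5 highest and 5 lowest with α-factor, and listed genes that hold a member bin; other genes were named after their values were seen. Alternatives were other thresholds, lowest levels, pseudocounts, scalings, controls and units. The steps were checked on simulated data. Python 3.11.15 was used with numpy 2.4.6, pandas 2.3.3, scipy 1.17.1, and matplotlib 3.10.9.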

Additional observations from a re-analysis of the deposited data

Results flagged for a closer look

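*CMK2*, the calmodulin-dependent protein kinase gene, went in opposite directions with α-factor in the 2 strains. Its log2 ratio of α-factor to untreated was 0.18 (0.13 to 0.23) in wild type, where the signal was 467 against 413, and −0.24 (−0.28 to −0.20) in *sub1*Δ, where it was 620 against 732. Each strain has 1 library per condition, so the difference was not tested.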

How the results depend on the processing

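The count of member bins moved with the threshold and the control: 380 bins became 707 at a log2 difference of 1, 216 at 2, and 175 with untreated cells as the control. The median log2 *sub1*Δ to wild type ratio in sorbitol, −0.13, became −0.33 when each library was divided by its median, a scaling that moved the median of all bins from 0.14 to −0.06. The members stood 0.27 below all bins in either scaling. The median ChIP ratio of runs, 2.26, became 1.59 with libraries scaled to a common total and 1.19 as the mean over the bins of a run. The wild type α-factor median, −0.69, was −0.42 over runs and between −0.65 and −0.62 in the other settings, and the number of runs, 61, was 41 to 55. Of settings chosen after seeing the data, the median strain ratio in untreated cells, −0.64, was −0.32 over runs, the share of wild type sorbitol signal, 1.40%, was 0.953% without the *HSP12* run, and moving the gene table by 1 bin gave 49 or 50 genes in place of 47, with 44 shared. In the count test of α-factor, the 2 genes called higher and 4 called lower became 8 and 15 with the untreated and α-factor libraries alone and 5 and 10 with DESeq2. In that of the strains, the 5 called higher became 0 with 8 libraries, and the 20 called lower became 13 with DESeq2 (18 with 8 libraries). The fits with 8 libraries include those by which the members were chosen. No paired analysis was possible because the labels give these libraries no replicate numbers, and the count tests had strain and condition as terms instead. Low bins limit the set, since a bin below 100 in either sorbitol library could not enter it, and the direction between the sorbitol ChIP libraries rests on their titles.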
